A study of Rattus norvegicus with 10 samples.

Results

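Cyclin-dependent kinase inhibitors are small proteins that bind the kinases of the cell cycle and hold them inactive. The Cip/Kip family (Cdkn1a for p21, Cdkn1b for p27 and Cdkn1c for p57) binds complexes of cyclins with their kinases. The Ink4 family (Cdkn2a for p16, Cdkn2b for p15, Cdkn2c for p18 and Cdkn2d for p19) binds the G1 kinases Cdk4 and Cdk6 and keeps D-type cyclins from activating them. Active G1 kinases phosphorylate the retinoblastoma protein and release E2F factors, so that high inhibitor levels are known to go with cell-cycle exit, differentiation and senescence. Cdkn2a also encodes Arf from another reading frame, a protein that stabilizes p53, and Cdkn1a is the best known gene activated by p53. Raised Cdkn1a is a textbook response of many cell types to drugs that block histone deacetylases, which strip acetyl marks off histone tails.

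The genes considered are these 7, by name, of 32883 genes in the table of RNA sequencing values. The table lists Ensembl identifiers alone, and symbols came from the readable rows of the study's supplementary gene list, which pair 1909 identifiers with a symbol. By this route 3 of the 7 inhibitors have values here: Cdkn1a (ENSRNOG00000000521), Cdkn2a (ENSRNOG00000059837) and Cdkn2b (ENSRNOG00000006735). Cdkn1b, Cdkn1c, Cdkn2c and Cdkn2d could not be paired with an identifier and were not analysed here, so nothing can be said about their levels. The readable rows that name them list only genes raised by TSA. Their rise with TSA is therefore what made them nameable, and it is given below as a description with no p-value, as are all comparisons that use the TSA libraries or their controls. The NaB libraries and their own controls were not needed for the pairing, since all 3 genes stand in the TSA rows, and the tests below compare them. The spread in these tests was estimated over all 10 libraries, those of the TSA experiment included.

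Every library came from a primary culture of cortical cells of newborn Wistar rats, grown to day 14 in vitro, in which neurons and glia are mixed. There were 3 libraries of cultures given trichostatin A (TSA, 100 nM, 19 h) with 3 of their own control cultures, and 2 of cultures given sodium butyrate (NaB, 24 h) with 2 of theirs. Both drugs are broad-spectrum inhibitors of histone deacetylases, and sources disagree on the dose of NaB, which the methods text puts at 5 mM and the labels at 5 µM. Drug, duration and project differ together between the experiments and cannot be told apart. The depth, in recovered reads, was 26956397 to 27649249 per control library for TSA and 26070908 to 27606793 per TSA library. The NaB controls held 26748731 and 26902233 reads and the NaB libraries 27426771 and 26844994. None of the 9 neuron, 7 astrocyte or 8 oligodendrocyte markers that were listed could be paired, so the labelled cell type was not checked. In bulk libraries of mixed cells, more cells of a type and more RNA per cell cannot be told apart.

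All 3 inhibitors that could be followed had higher normalized counts in every treated library than in every control library of the same experiment, with both drugs. Among all tested genes, 33.1% had such separate groups with TSA and 40.2% with NaB, and among the genes named by the TSA rows it was 95.9% with NaB. With NaB, Cdkn1a rose 2.20-fold, Cdkn2b 3.39-fold and Cdkn2a 6.27-fold (limma, n = 2 against 2, adjusted p of 0.00152, 0.00142 and 0.00724). With TSA, the folds were 2.26, 3.12 and 7.01 in the same order. With the 4 libraries of the NaB experiment fitted alone, the adjusted p was 0.0119 for Cdkn1a, 0.00472 for Cdkn2b and 0.0034 for Cdkn2a. A normalized count is the number of reads of a gene divided by the size factor of its library, and folds are from means of log2(normalized count + 1), so that for a low gene they depend on the pseudocount and on single low libraries and can differ from the ratio of the group means. A gene was called when its adjusted p was below 0.05 and its absolute log2 fold change at least 0.5. All 3 genes were called higher with NaB, where 21.2% of the 15717 tested genes were, and 87.3% of the 1753 tested genes named by the TSA rows. A call with NaB is thus the common outcome for a gene named in this way. With TSA, 22.5% of all tested genes were called higher and 99.7% of the named ones, these 3 among them, a share that the pairing fixed and from which nothing is read.

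**Figure D1:**
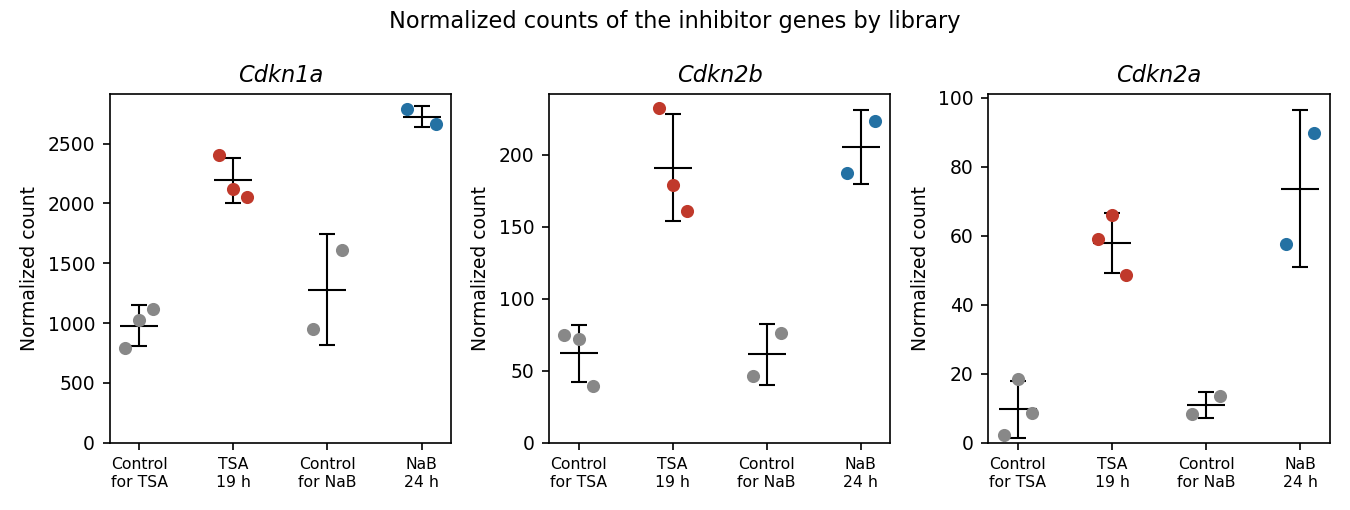
Normalized counts (vertical axes, linear from 0) of Cdkn1a, Cdkn2b and Cdkn2a in each library (points) of the 4 groups, with the mean and SD (bars, n = 3, 3, 2 and 2). In each panel the treated libraries lie above all controls of their experiment. For Cdkn1a, the highest control and the lowest treated library were at 1121 and 2054 in the TSA experiment and at 1608 and 2663 in the NaB experiment.

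Cdkn1a, which encodes p21, an inhibitor of cyclin E and cyclin A kinases that also binds the replication clamp PCNA, was counted at 788, 1027 and 1121 in the controls for TSA and at 2409, 2119 and 2054 with TSA. The NaB controls were at 950.4 and 1608, and the NaB libraries at 2788 and 2663. The lowest treated library, at 2054, was thus above the highest control of either experiment, at 1608, and the controls for NaB lay further apart than the NaB libraries did. The group means were 979 ± 172 (SD, n = 3) in the controls for TSA, 2194 ± 189 (SD, n = 3) with TSA, 1279 ± 465 (SD, n = 2) in the controls for NaB and 2725 ± 88.4 (SD, n = 2) with NaB. The log2 fold change was 1.18 with TSA (standard error 0.18) and 1.14 with NaB (standard error 0.22). In the order of levels, the controls for TSA came lowest, then the controls for NaB, then TSA, then NaB. The control groups of the experiments overlapped (difference 0.35 on the log2 scale, interval from -0.09 to 0.80), while the treated groups did not, although the interval of their difference holds 0 (0.32, from -0.13 to 0.76). Of all tested genes, 1.55% were called between the control groups and 4.42% between the treated groups. Of the tested genes, 1957 had a larger log2 fold change than Cdkn1a with NaB and 1866 with TSA.

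Both control libraries for NaB weigh on the size of the change with NaB, in opposite directions. Without the control at 950.4, the log2 fold change of Cdkn1a with NaB was 0.76, and without the one at 1608 it was 1.52, so that it stayed positive either way.

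The window before the start of Cdkn1a that RefSeq gives in the assembly GRCr8 is shown because p53 acts on this gene through such upstream elements. It holds 1 exact match to the consensus of the p53 element unit, 201 to 192 bases before the start, printed in capitals.

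Cdkn1a, chr20:7150682-7150931, plus strand: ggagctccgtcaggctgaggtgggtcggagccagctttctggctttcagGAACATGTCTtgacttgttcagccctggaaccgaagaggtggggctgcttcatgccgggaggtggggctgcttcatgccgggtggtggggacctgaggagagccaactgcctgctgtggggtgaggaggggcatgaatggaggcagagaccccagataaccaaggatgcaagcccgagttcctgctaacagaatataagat

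Such a match is found in 6.64% of the 33469 windows of this length, on either strand. This motif was added after the letters of the window were read. The GC box (GGGCGG or its reverse complement), which the factor Sp1 binds, is absent from these 250 bases. The window belongs to a single annotated start, and reads at that start were not examined. No window for another start of Cdkn1a was at hand. The absence of a GC box therefore holds for these letters alone and says nothing about other starts of the gene.

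Cdkn2b encodes p15, an Ink4 inhibitor of Cdk4 and Cdk6 that is known as a target of TGF-beta. Its normalized counts were 74.9, 72.1 and 39.5 in the controls for TSA, and 233, 179 and 161 with TSA. The NaB controls gave 46.6 and 76.2, and the NaB libraries 187 and 224. The highest of the 5 controls, at 76.2, was less than the lowest treated library, at 161. In the NaB experiment the mean of the controls was 61.4 ± 21.0 and that of the treated libraries 205 ± 25.8 (SD, n = 2 each). The rise was 1.76 on the log2 scale (standard error 0.34, limma adjusted p = 0.00142). With TSA they were 62.2 ± 19.7 and 191 ± 37.1 (SD, n = 3 each), a log2 fold change of 1.64 (standard error 0.28). The controls of both experiments were on the same level (difference -0.0038 on the log2 scale, interval from -0.69 to 0.68), and NaB and TSA libraries differed by 0.12 (interval from -0.57 to 0.80).

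Cdkn2a, the gene of p16 and Arf, was the least counted of the 3 and had the largest fold. Its normalized counts were 2.11, 18.5 and 8.53 in the controls for TSA and 59.1, 66.0 and 48.6 with TSA, from 2, 18 and 8 reads and from 63, 73 and 50 reads. The NaB controls gave 8.28 and 13.6 (8 and 13 reads), and the NaB libraries 57.6 and 89.7 (61 and 93 reads). The lowest treated library was thus far above the highest control, 18.5, while the controls for TSA spanned almost an order of magnitude among themselves. The log2 fold change with NaB was 2.65 (standard error 0.67, adjusted p = 0.00724, limma). It was 2.81 with TSA (standard error 0.55). Without the NaB library at 89.7, the change with NaB stayed at 2.33 but missed the threshold (adjusted p = 0.0538). The control for TSA at 2.11 weighs on the size with TSA: without it the log2 fold change was 2.10, and without the control at 18.5 it was 3.42. Since p16 and Arf share exons, and the table counts reads per gene, the transcripts cannot be told apart. A count of 0 in a library of this depth allows up to 3 reads (0.109 to 0.115 CPM), a limit for counting error only.

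To compare the drugs, the log2 fold change with TSA was subtracted from that with NaB. The difference was -0.04 for Cdkn1a (95% interval from -0.67 to 0.59), 0.12 for Cdkn2b (from -0.84 to 1.08) and -0.16 for Cdkn2a (from -2.09 to 1.76), all on the log2 scale. Since genes were named for their rise with TSA, this difference leans downward for them. Its median was -0.16 over the genes named by the TSA rows and -0.0028 over all tested genes, of which 0.299% were called. The values are therefore a description. The sign of these differences is not settled: for Cdkn2a it was 0.18 with edgeR (TMM) and with DESeq2, 0.55 without control 1 for TSA and -0.78 without control 2. The interval was narrowest for Cdkn1a and reached 3-fold in either direction for Cdkn2a, and for none of the 3 are the drugs shown to act alike.

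Each treated culture shared a plate with its control culture, which allows a look within pairs. Cdkn1a was higher in the treated culture of all 5 pairs, by 3.06-, 2.06- and 1.83-fold with TSA and by 2.93- and 1.66-fold with NaB. For Cdkn2b the folds were 3.11, 2.48 and 4.09 with TSA, and 4.02 and 2.93 with NaB. For Cdkn2a the differences were 4.27, 1.78 and 2.38 with TSA and 2.66 and 2.64 with NaB on the log2 scale, where the 4.27 stands on 2 reads in the control. The order of the pairs was not shared by the genes: Cdkn1a changed most in TSA pair 1 and Cdkn2b most in TSA pair 3.

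**Figure D2:**
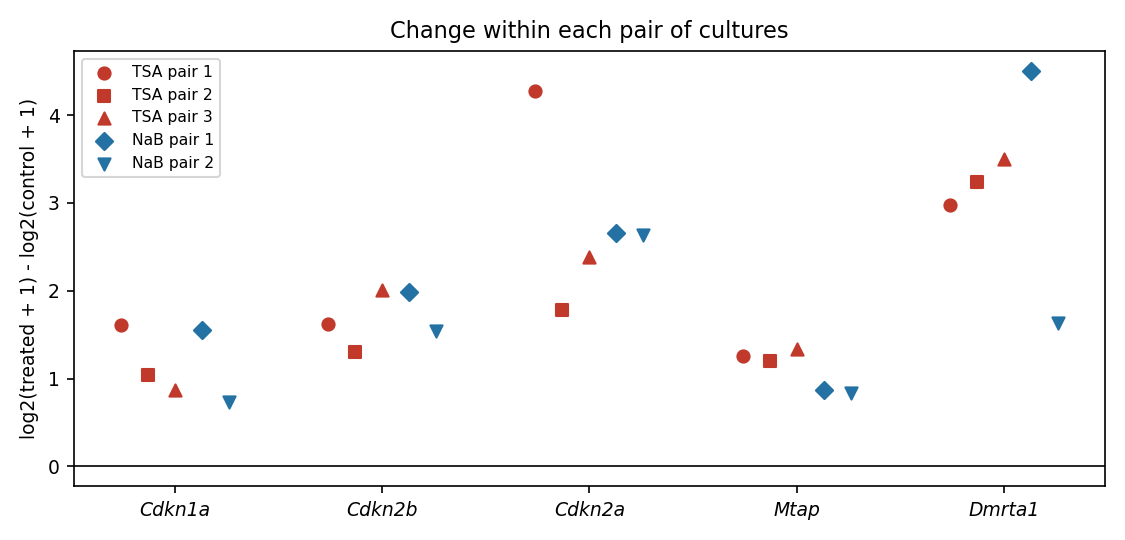
Difference of log2(normalized count + 1) between the treated and the control culture of each pair (vertical axis) for the inhibitors and their chromosomal neighbours Mtap and Dmrta1; colours give the drug and marker shapes the pair. All 25 points lie above 0, from 0.73 (Cdkn1a, NaB pair 2) to 4.51 (Dmrta1, NaB pair 1, where the control had no read).

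Cdkn2a and Cdkn2b lie near each other on chromosome 5. In the annotation of GRCr8, the order of the protein-coding genes is Mtap, Cdkn2a, an unnamed gene, Cdkn2b and Dmrta1. The windows before the starts of these inhibitors are printed for a comparison with that of Cdkn1a, with GC boxes on either strand in capitals.

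Cdkn2b, chr5:109134856-109135105, minus strand: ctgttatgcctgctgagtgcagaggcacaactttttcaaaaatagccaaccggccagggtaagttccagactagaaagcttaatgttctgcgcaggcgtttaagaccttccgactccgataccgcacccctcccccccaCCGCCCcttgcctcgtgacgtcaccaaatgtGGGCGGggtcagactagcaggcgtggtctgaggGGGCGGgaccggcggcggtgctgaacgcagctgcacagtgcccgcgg

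Cdkn2a, chr5:109107957-109108206, minus strand: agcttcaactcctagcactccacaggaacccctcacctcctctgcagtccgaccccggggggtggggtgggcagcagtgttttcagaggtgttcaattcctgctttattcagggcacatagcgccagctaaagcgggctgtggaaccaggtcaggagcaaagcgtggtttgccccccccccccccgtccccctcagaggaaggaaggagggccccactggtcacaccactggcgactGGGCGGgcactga

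The Cdkn2b window holds 3 GC boxes, between 111 and 42 bases before the start, and the Cdkn2a window 1, from 13 to 8 bases before it. A GC box is found in 30.5% of all windows. Cdkn2b has 18 CpG dinucleotides in these 250 bases, Cdkn2a 8 and Cdkn1a 6, where the median of all windows is 5. On either strand, none of the 3 windows holds CCAAT, the letters of the CCAAT box, which are in 34% of all windows. None holds TATAAA, the letters of the TATA box, in 12.9% of all windows. For E2F factors, TTTCCCGC was searched, in 0.813% of all windows, and as a further form TTTGGCGC, in 0.412%, and none of the 3 holds either. The matches describe these letters alone and do not show that a factor binds there. The window of Cdkn2a precedes a start that lies inside the gene, and no window for another start was at hand.

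The named genes on either side of this pair, Mtap, an enzyme of methionine salvage, and Dmrta1, a transcription factor, could both be paired through the TSA rows too. Mtap was at 345, 331 and 339 in the controls for TSA, at 823, 763 and 857 with TSA, while the NaB controls were at 316 and 337 and the NaB libraries at 579 and 602. Its treated libraries were far above the controls of both experiments, and with NaB it rose by 0.85 on the log2 scale (standard error 0.10, adjusted p = 8.98e-05, limma). Its change with NaB was smaller than that with TSA by 0.41 on the log2 scale (difference -0.41, interval from -0.71 to -0.11), a description since TSA named the gene. Dmrta1 had at most 2 reads in any control for TSA. In the TSA libraries it was at 23.4, 18.1 and 22.3, at least 6.76-fold higher against a floor of 3 reads per library. The NaB controls gave 0 and 5.22 and the NaB libraries 21.7 and 18.3, and the log2 fold change was 3.07 (standard error 0.71). With at most 5 reads in any control, Dmrta1 passed the filter on read counts (minimum count 10) only through treated libraries. Its change with NaB is therefore a description with no test. The size of 3.07 rests on the control at 0 and on the pseudocount: without that control it was 1.75, and with a pseudocount of 5 it was 1.80. All 4 named genes along this stretch were thus higher with NaB, Dmrta1 without a test, and the genes named there were already limited to ones raised by TSA. For the neighbours of Cdkn1a, Srsf3 and Rab44, no identifier could be paired.

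The wider pathway was looked up in 12 lists of 178 genes: cyclins and their kinases, pocket proteins and E2F factors, proliferation markers, p53, ligases that degrade the inhibitors, their transcriptional regulators, Polycomb, histone deacetylases, senescence, neighbours and associated proteins. Only 19 of them could be paired, all through the TSA rows, and no list can be described as a whole. None of the 12 cyclins and kinases of S, G2 and M phase, 14 proliferation markers, 16 genes of inhibitor turnover or 15 histone deacetylases and corepressors was paired. Of the 19, 16 were called higher with NaB, 0 lower, and the other 3 did not pass, beside 87.3% called higher among all genes named by the TSA rows. With the plate pairs as a replicate block 18 were called higher, and the share of all named genes was not computed for that setting. Their median log2 fold change was 1.51 with NaB (1.49 with Tp63 and Phlda2 at the bound that 3 reads set), where it was 0.02 over all tested genes and 1.80 over the genes named by the TSA rows. It was 1.64 with TSA, where the pairing chose them. Among the 16 called with NaB, Tp63, Dmrta1 and Phlda2 held at most 7 reads in any control. These genes passed the filter on read counts only through treated libraries, so their calls are a description.

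On the side that the inhibitors oppose, Ccnd2, a D-type cyclin that activates Cdk4 and Cdk6, was the 1 of 12 G1 cyclins and kinases that could be paired. It was at 1744, 2011 and 1855 in the controls for TSA, 3625, 4209 and 5159 with TSA, 1833 and 2128 in the NaB controls and 4235 and 4875 with NaB. Treated and control libraries of each experiment did not overlap, and it rose by 1.20 on the log2 scale with NaB (standard error 0.15, adjusted p = 1.09e-04, limma). This cyclin and the inhibitors Cdkn1a, Cdkn2a and Cdkn2b were thus raised in the same libraries. All of them were named by rows that list only genes raised by TSA. A cyclin or kinase that fell could not be named in this way, and the paper reports cyclins and cyclin-dependent kinases among its downregulated genes. Tfdp2, a partner of E2F factors and the 1 paired of 13 in its list, rose by 0.75 with NaB (standard error 0.14, adjusted p = 0.00121).

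Of 20 genes of the p53 pathway, 5 were paired, all through the TSA rows, and 4 of these were called higher with NaB. Among all tested genes named by those rows, 87.3% were called higher with NaB, and 21.2% among all tested genes. The call of Tp63 is a description, as it passed the filter on read counts only through treated libraries. Pmaip1, which encodes the cell death protein Noxa, went from 133 and 95.0 in the NaB controls to 999.9 and 544, which is 2.71 on the log2 scale (limma adjusted p = 5.0e-05). Tp63, a relative of p53, had at most 3 reads in a control for NaB and was at least 6.71-fold higher, at 28.4 and 13.5. This limit leans on the library at 28.4: within NaB pair 2, with 13.5, Tp63 was 4.31-fold higher. The fitted log2 fold change of Tp63, 3.34, was 2.32 without control 1 for NaB and 4.37 without control 2. Gadd45b and Tp53inp1 rose by 1.13 and 1.18 on the log2 scale with NaB. Tp73, the other relative of p53, did not pass with NaB: it was at 40.4 and 33.4 in the controls and at 49.1 and 43.4 with NaB (0.32, adjusted p = 0.294). In the TSA experiment Tp73 was at 17.9, 19.6 and 16.0 in the controls and at 49.7, 55.2 and 55.4 with TSA, and the difference between the changes was -1.21. The controls of the experiments differed too, by 1.01 on the log2 scale, and the difference between the drugs was not tested apart from the choice of the gene.

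Among 26 regulators of inhibitor genes, 3 were paired, all through the TSA rows, and all 3 were called higher with NaB. So were 87.3% of the tested genes named by those rows and 21.2% of all tested genes. Foxo1, a forkhead factor that activates inhibitor genes, had a log2 fold change of 1.49 (adjusted p = 2.91e-05), Tgfb1, the ligand that raises Cdkn2b in many cells, 1.81 (adjusted p = 3.06e-04) and Klf4, an activator of Cdkn1a, 1.74 (adjusted p = 0.0088). The call of Klf4 was lost without control 1 for NaB (1.38, adjusted p = 0.066) and without NaB replicate 2 (1.46, adjusted p = 0.0689). Tgfb1 was at 43.5 and 47.0 in the controls for NaB and at 170 and 152 with NaB. Cbx7, a Polycomb protein known to repress Cdkn2a, was the 1 paired of 16 regulators of the Ink4 locus. It rose along with that gene, from 241 and 145 in the NaB controls to 954 and 791, which is 2.21 on the log2 scale (standard error 0.21, limma adjusted p = 2.09e-05). It was at 138, 152 and 149 in the controls for TSA and at 665, 702 and 605 with TSA.

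Of 14 genes associated with senescence, 4 were paired, and 2 of these were called higher with NaB. The share called higher was 87.3% among the tested genes named by the TSA rows and 21.2% among all tested genes. Plaur, the receptor of urokinase, rose by 2.15 on the log2 scale (adjusted p = 2.97e-04, limma). Timp1 (1.18, adjusted p = 0.0524) and Gdf15 (1.51, adjusted p = 0.0513) missed the threshold, but with the plate pairs as a replicate block both were called (adjusted p of 0.00167 and 0.00227). The sizes of both depended on single libraries. The log2 fold change of Timp1 was 0.76 without NaB replicate 2 and 1.60 without NaB replicate 1. For Gdf15 it was 0.85 without control 1 for NaB and 2.16 without control 2. Of 13 listed neighbours of inhibitor genes, 4 were paired, and besides Mtap and Dmrta1 these were Phlda2, at least 2.30-fold higher with NaB, and Apold1, with a log2 fold change of 0.89 (adjusted p = 0.00958). Phlda2 had 7 and 8 reads in the NaB libraries and passed the filter on read counts only through the TSA libraries. Its value with NaB is therefore a description. The call of Phlda2 was lost without control 1 for NaB (adjusted p = 0.0516), and that of Apold1 without control 2 (0.50, adjusted p = 0.0846) and without NaB replicate 1 (adjusted p = 0.0564).

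**Figure D3:**
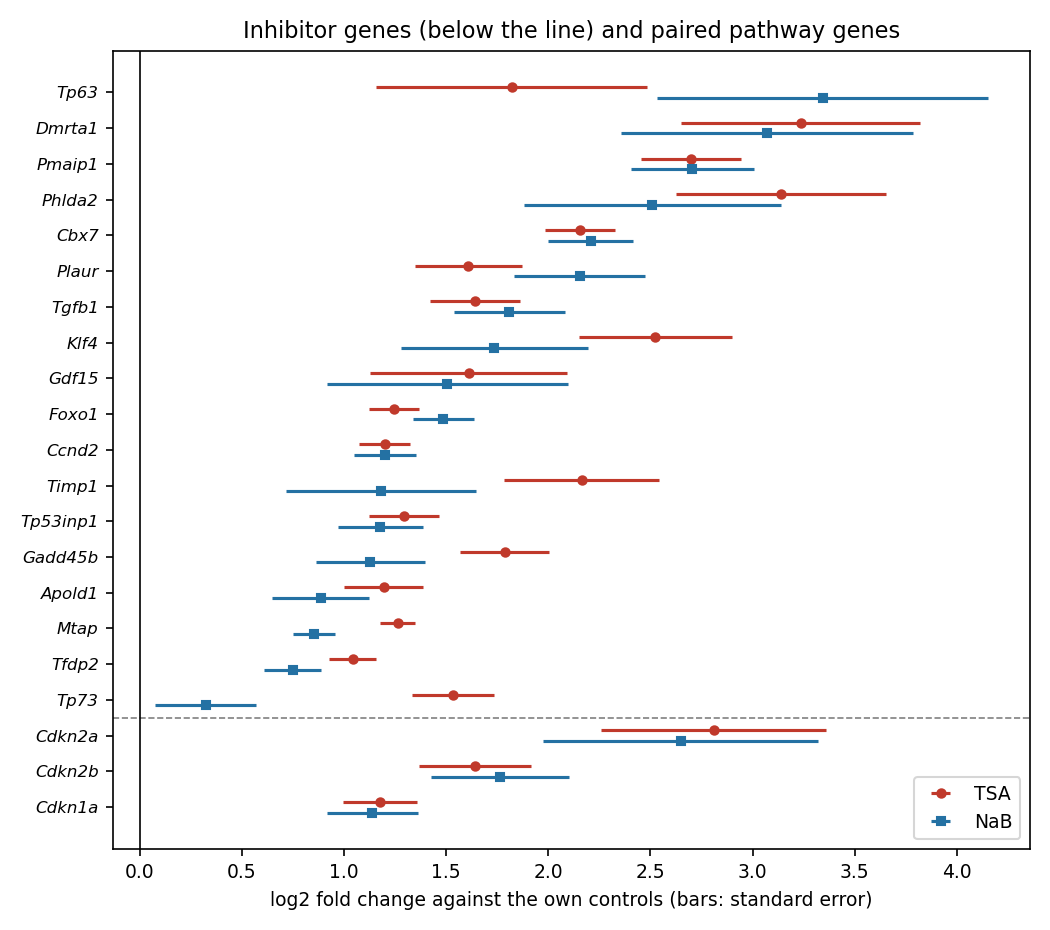
Log2 fold changes against the own controls (horizontal axis, points with standard errors) with TSA (circles) and NaB (squares) for the 3 inhibitors and 18 of the pathway genes that could be paired. All points lie above 0. With NaB they range from 0.32 (Tp73) to 3.34 (Tp63). The fitted values of Tp63 with NaB, of Dmrta1 and of Phlda2 depend on the pseudocount because their controls held 0 to 5 reads.

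Markers of other cells in the cultures were almost out of reach of the pairing. Of 7 pericyte and fibroblast markers 2 were paired. Rgs5 was at 2.11, 4.12 and 4.27 in the controls for TSA, 29.1, 24.4 and 32.1 with TSA, 5.18 and 12.5 in the NaB controls and 58.6 and 50.1 with NaB. Col1a1, the more abundant of these, was at 909, 47.4 and 1379 in the controls for TSA, 798, 696 and 879 with TSA, 149 and 137 in the NaB controls and 876 and 961 with NaB. The control for TSA with the fewest collagen counts, 47.4, had 1027 of Cdkn1a and 72.1 of Cdkn2b, each between the other controls for TSA, and 18.5 of Cdkn2a, the highest of all controls. Of 7 microglial markers, Tmem119 alone was paired, through the NaB rows. It was at 1.04 and 2.09 in the NaB controls and at 15.1 and 11.6 with NaB, and between 1.03 and 5.63 in the TSA experiment. With NaB, Rgs5 was higher. Its controls held 2 to 12 reads, and it passed the filter on read counts only through treated libraries, so no test is given. Col1a1, like Tmem119, could be named only through the NaB rows, which list genes raised by NaB, so the values of both with NaB are a description with no test. Their part in the result was not tested.

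The genes with the profile most like that of each inhibitor were sought among the 1827 tested genes with a symbol, by Pearson's r of log2(normalized count + 1) over the 10 libraries. For Cdkn1a they were Rgs5 (r = 0.985), Lama2 (0.985) and Arhgap6 (0.984), for Cdkn2a Igfbpl1 (0.990), Trim25 (0.981) and Plin3 (0.979), and for Cdkn2b Ca9 (0.990), Mylk (0.986) and Vwf (0.986). Such values are common here, because the libraries share treatments and nearly all of these genes were chosen for a rise: r was above 0.9 for 607 genes with Cdkn1a, 433 with Cdkn2a and 757 with Cdkn2b. Among the inhibitors, r was 0.931 for Cdkn1a with Cdkn2a, 0.881 for Cdkn1a with Cdkn2b and 0.856 for Cdkn2a with Cdkn2b over the same libraries.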

How the data were processed

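The 10 libraries were sequenced as mRNA from oligo(dT) beads. The authors mapped the reads to Rnor_6.0 with STAR (2.7.9a), counted them per gene with featureCounts (2.0.1) and normalized them by median-of-ratios with DESeq2 (1.29), as the paper and the submitters' processing notes state. The deposited signal is these normalized counts. Whole reads were recovered by division through the least nonzero value per library, which gave whole numbers (tolerance 0.01) for 100% of nonzero values. The strand setting of the counting is not given in the sources used here, so genes that overlap others are uncertain to that extent.

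The test was limma 3.58.1 (R 4.3.3) with a trend, fitted to log2(normalized count + 1) in the 10 libraries as 4 groups, for the 15717 genes that filterByExpr (minimum count 10) kept, with two-sided p adjusted by Benjamini-Hochberg over all of them. On the recovered reads, edgeR 4.0.16 with TMM called 6657 genes with TSA and 6546 with NaB. DESeq2 1.42.0 was a further alternative. The limma fits, with and without the block, were tested on simulated data. Other alternatives were pseudocounts of 0.5 and 5, library totals, TMM factors in limma, no filter or a mean of 50 reads, each comparison alone, a replicate block, no minimum fold change or 1 on the log2 scale, and each library left out. Members and lists were chosen with earlier results of these data known. Named pathway genes were the up to 2 of each list that rose most with TSA among those called with both drugs, and a fixed set of core genes, of which Ccnd2 and Foxo1 could be paired; Mtap, Gadd45b, Tp53inp1, Apold1 and the genes that did not pass were named after their values were seen.

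The labels number the replicates of TSA and its controls alike, and consecutive library names mark the pairs for NaB. After group means were removed, paired libraries correlated with r = 0.284, 0.392 and 0.314 in the TSA experiment and 0.342 in the NaB experiment. Sequences are from RefSeq (GRCr8), another build than that of the counts; the annotation table holds no Ensembl identifiers, so it named no genes, and its windows were matched by symbol for 3 of 3 inhibitors. Protein sequences were not used here, and 1 paired pathway gene is counted in its list but not reported here. The labels do not tie libraries to animals, so p-values measure the spread between these libraries.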

Additional observations from a re-analysis of the deposited data

How the results depend on the processing

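In the 23 alternatives, the changes of Cdkn1a, Cdkn2a and Cdkn2b with TSA and with NaB stayed positive wherever the genes were tested, and their calls with NaB held, except for Cdkn2a without NaB replicate 2 (2.33, adjusted p = 0.0538). Over the alternatives, the adjusted p with NaB lay between 4.63e-06 and 0.0126 for Cdkn1a, 2.16e-06 and 0.0146 for Cdkn2b and 3.40e-05 and 0.0538 for Cdkn2a. Without single libraries, the log2 fold change of Cdkn2a with NaB was 2.32 to 2.97. Cdkn2a was not tested with a mean of at least 50 reads, and its call with the NaB experiment fitted alone is a description. When single libraries were left out, the difference between the drugs ran from -0.42 to 0.34 for Cdkn1a (without controls 1 and 2 for NaB), from -0.23 to 0.47 for Cdkn2b (the same libraries) and from -0.78 to 0.55 for Cdkn2a. The number of pathway genes called higher with NaB was between 13 and 18 where all 19 were tested, and 12 of 14 with a mean of at least 50 reads. With a minimum log2 fold change of 1, 3416 genes in all were called with TSA and 3450 with NaB. The number called for the difference between the drugs, 47, was the least stable: 252 with DESeq2, 71 with library totals, 31 with no filter, and from 1 to 45 when single libraries were left out, each left-out library of the NaB experiment, controls 1 and 3 for TSA, and TSA 3 taking it to 21 or fewer. With the replicate block it was 404, and 6958 genes were called with TSA and 6950 with NaB. The replicate block turned the calls of Timp1 and Gdf15 with NaB, and that of no other named pathway gene or of the 3 inhibitors, where the adjusted p with NaB was 4.61e-04 for Cdkn1a, 5.58e-05 for Cdkn2b and 0.00103 for Cdkn2a. Scaling by library totals moved the median of all genes to 0.20 with TSA and 0.13 with NaB, and 4675 of 6841 calls with TSA were then higher, in place of 3540 of 6644. The 3 inhibitors rose more than that shift with both drugs. The planned description of protein sequences was not run.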
